A study of Mus musculus with 6 samples.

Results

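Many circRNAs of differentiating white preadipocytes shared a splice site with other circRNAs, and these shared sites are described here. A hub was defined as a back-splice start or end position that at least 3 circRNAs of the same chromosome and strand used, and a member as any circRNA with at least 1 end at a hub. Of the 3662 circRNAs in the table, 616 (16.8%) were members, and they carried 71674 of 243190 back-splice reads (29.5%). The 203 hubs were 3.28% of the 6182 back-splice sites and lay in 163 parental genes. There were 123 acceptor hubs, where one 3′ splice site received several downstream donors, and 80 donor hubs, where one 5′ splice site was joined back to several upstream acceptors. In this text the alternative circRNAs of a hub are called its partners, and the partner share is the percentage of a hub's back-splice reads in one library that belonged to one partner.

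The cells were preadipocytes from the stromal vascular fraction of inguinal white fat of female C57BL/6J mice aged 6 weeks. They were sampled before induction (D0), after 4 days with insulin, dexamethasone and IBMX (D4), and on day 8 after further culture with insulin and T3 (D8). Each stage had 2 libraries, prepared from RNA that had been depleted of rRNA and digested with RNase R, an exonuclease that removes linear RNA. The study describes them as biological replicates, but how many animals or cultures stood behind each is not given in the sources used here, and p-values measure the spread between these libraries. The fraction is not a pure cell type, and in such bulk RNA fewer cells of a type and less RNA per cell cannot be told apart.

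The back-splice reads in the table numbered 30110 and 32310 at D0, 43069 and 41658 at D4 and 45371 and 50672 at D8, so that 1 read was worth between 19.7 and 33.2 circCPM, the read count per 1000000 back-splice reads of its library. Of the labelled cell types, 5 of 8 adipocyte marker genes had circRNAs, with a summed level of 764 and 124 circCPM at D0, 1045 and 1152 at D4 and 2755 and 2546 at D8. The only preadipocyte or fibroblast marker with a circRNA, Pdgfra, was at 266 and 309.5 circCPM at D0 and between 0 and 98.7 later, out of 6 genes looked up. None of 6 endothelial markers had a circRNA, the macrophage marker Adgre1 (1 of 5) was at 0 at D0 and D4 and at 220.4 and 78.9 circCPM at D8, and Myocd (1 of 5 pericyte or smooth muscle markers) lay between 0 and 220.4 circCPM. What these markers contributed to the differences between stages was not tested.

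Circular RNAs form when the spliceosome joins a downstream 5′ splice site (the donor) back to an upstream 3′ splice site (the acceptor) of the same pre-mRNA. Back-splicing competes with linear splicing and is favoured by long flanking introns and by inverted repeats or RNA-binding proteins that bring the flanking introns together. Where one splice site can be paired with several others, a gene yields a family of circles that share one side of the junction and differ in how many exons they enclose, a pattern known as alternative back-splicing.

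The hub with the most partners and many reads was the acceptor of exon 2 of Slc10a7, a membrane protein of the solute carrier 10 family, at chr8:81039485 on the plus strand of mm9. Its sequences are shown 5′ to 3′ because all its circles carry the same acceptor side and are told apart by the donor side alone. The first line is the genomic window of the hub (chr8:81039467-81039496), with intron in lower case and exon in capitals. The other lines are the back-splice junctions, 15 bases of the donor end in lower case followed by 15 bases from the hub in capitals, named by the span of the circle.
Slc10a7 hub site: tcattgctctcttctcagGACCACTGAAGC
chr8:81039485-81102656: tttggaagttttttgGACCACTGAAGCCAG
chr8:81039485-81055057: gttggtggaaatgagGACCACTGAAGCCAG
chr8:81039485-81230847: agtccctcaccttggGACCACTGAAGCCAG
chr8:81039485-81186921: ctcctgctgcttttcGACCACTGAAGCCAG
chr8:81039485-81113148: gtgctggaactacagGACCACTGAAGCCAG
chr8:81039485-81078920: cggaatccccagcagGACCACTGAAGCCAG

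The donor hub with a circle whose share was called different by 1 of the tests below was the end of exon 18 of Arhgap10, which encodes a GTPase-activating protein, at chr8:79868539 on the minus strand of mm9. Here the shared side is the donor, so the capitals stand first in each junction and the lower-case side is the acceptor that changes. In the hub window (chr8:79868521-79868550) the exon is in capitals and the intron in lower case.
Arhgap10 hub site: AACCATGAAAAGgtaccattgtcctttctt
chr8:79868539-79889059: GAAAACCATGAAAAGgtataaatgaccaag
chr8:79868539-79875571: GAAAACCATGAAAAGgagtcttccagagcc
chr8:79868539-79908695: GAAAACCATGAAAAGctgttccacacgttt
chr8:79868539-79882533: GAAAACCATGAAAAGatgtaaaaatgtgca

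The hubs with the lowest adjusted p for a difference of their totals between stages were the donor of exon 15 of Cped1 (chr6:22095687, plus strand) and the acceptor of exon 2 of Cacna1c (chr6:119007533, minus strand), the gene of the pore-forming subunit of an L-type calcium channel. Their windows and junctions follow with the hub side in capitals, for all 3 partners of Cped1 and the 3 most-read of 5 partners of Cacna1c.
Cped1 hub site, chr6:22095676-22095705: GGCTTTGTACAAgtgagtgcattttgcgtt
chr6:22082229-22095687: TGCGGCTTTGTACAActcttcccgtccagt
chr6:22069462-22095687: TGCGGCTTTGTACAActgcagatgtttttt
chr6:22035030-22095687: TGCGGCTTTGTACAAaatttcgacttccag
Cacna1c hub site, chr6:119007522-119007551: tctctcctctcctcgcagGTTCCAACTATG
chr6:119002619-119007533: accaactccaacctgGTTCCAACTATGGGA
chr6:118952595-119007533: aagtcccacgtgttgGTTCCAACTATGGGA
chr6:118955056-119007533: gaggttgaaggcatgGTTCCAACTATGGGA

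Most hubs were small: 166 had 3 partners, 28 had 4, 7 had 5 and 2 had 6. Below the threshold of 3, a further 688 sites had 2 partners and 5291 had 1. Of the members, 575 had 1 end at a hub and 41 had both ends at hubs, the latter with 7823 reads (10.9% of member reads). Of the 163 genes, 23 had at least 2 hubs, 21 had both a donor and an acceptor hub, and 11 had at least 3 hubs. Arhgap10 had 5 hubs, and Mllt10, Rere and Bckdhb, the gene of a subunit of the branched-chain ketoacid dehydrogenase, had 4 each.

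Acceptor hubs lay mainly at the second exon of their transcript, and hubs of both kinds bordered long introns. Of 118 acceptor hubs at an annotated exon, 71 (60.2%) were the acceptor of exon 2, as against 43.3% of acceptor sites with 2 partners and 28.1% of those with 1. The intron upstream of an acceptor hub had a median length of 17781 bases, that upstream of sites with 2 partners 16574 and that upstream of sites with 1 partner 8354. Donor hubs were the end of exon 2 in 3.9% of cases, close to the 2.78% and 4.29% of donors with 2 and 1 partners. Their median exon number was 8, against 7 and 6. The median intron downstream of donor hubs was 20936 bases, against 11898 and 6826 bases at donors with 2 and 1 partners. Introns over 10000 bases flanked 81.8% of donor hubs and 39.5% of other donor sites, and 68.6% of acceptor hubs and 47.9% of other acceptor sites. At sites with 2 partners the values were 55.6% for donors and 67% for acceptors, the latter close to that of acceptor hubs.

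**Figure D1:**
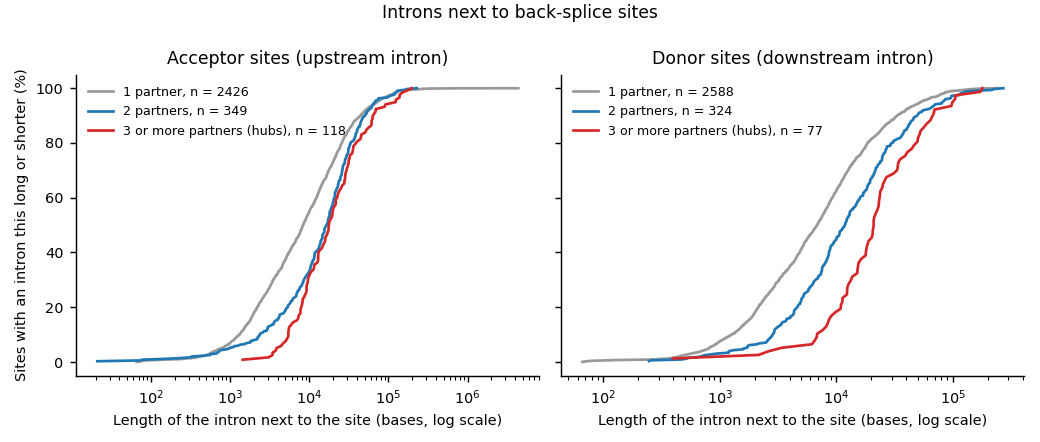
Cumulative percentage of sites against the length of the neighbouring intron, in bases on a log axis, with a line each for sites with 1 partner, sites with 2 partners and hubs, upstream of acceptors (left) and downstream of donors (right). The medians are 8354, 16574 and 17781 bases at acceptors and 6826, 11898 and 20936 bases at donors.

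A site with more reads can show more partners, and hubs were read more deeply, with medians of 214 reads at acceptor hubs and 197 at donor hubs against 28 and 29 at other sites. Among sites with at least 100 reads, exon 2 held 60.8% of acceptor hubs and 42.5% of other acceptor sites, the upstream introns had medians of 19864 and 14808 bases, and the introns downstream of donors 20965 and 11968 bases. These figures describe the sites, with no test of the difference.

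The splice signals of hubs were of the usual kind. The intron ended in AG at 122 of 123 acceptor hubs and began with GT at all 80 donor hubs, counted on the transcribed strand. The 20 intron bases before the acceptor held a median of 80.0% pyrimidines at hubs and 75% at other acceptors, and 75% at both among sites with at least 100 reads. The 6 letters GTAAGT at the start of the intron were present at 21 of 80 donor hubs (26.2%) and at 20.0% of other donors. An annotated exon end coincided with 95.9% of acceptor hubs and 96.2% of donor hubs.

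Members enclosed more sequence than the other circRNAs. The median genomic span was 17972 bases for members and 6214 for the others, with medians of 4 and 3 exons and of 504 and 433 spliced bases, and a single exon made up 2.7% of members and 6.53% of others with an exon model. Members had a median of 41 reads over the 6 libraries and other circRNAs 26. Annotated exon ends matched both back-splice sites for 85.6% of members and 93.1% of others, and 200 members (32.5%) were absent from circBase, a catalogue of circRNAs, against 36.2% of others.

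Detection here means at least 2 reads in both libraries of a stage. By this measure 378 members were detected at D0, 447 at D4 and 412 at D8, while for the other circRNAs the numbers were 1733, 1701 and 1950. All 3 stages detected 234 members (38%) and 25.5% of others, and 37.2% of members were detected at 1 stage alone against 48.8% of others. At least 3 partners were detected at 73 hubs at D0, 96 at D4 and 78 at D8, and none at 19, 9 and 8 hubs. The D0 libraries were the shallowest, and the part of depth in these counts was not tested.

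The share of back-splice reads that fell on members was higher at D4. It was 26.4% (95% Wilson interval 25.9 to 26.9) and 27.5% (27 to 28) in the D0 libraries, 33% (32.6 to 33.5) and 32.8% (32.4 to 33.3) at D4, and 27.6% (27.2 to 28.1) and 28.4% (28 to 28.8) at D8, so that the D4 libraries stood above the other 4. These intervals cover counting error only, since reads are not independent molecules. Membership itself rested on circRNAs kept by detection, and more members were detected at D4 (447) than at D0 (378) or D8 (412). The share is thus not independent of how members were defined, and the part of this in the values was not tested. Without the 29 members of the 8 most-read hubs the values were 21.8% and 21.6%, 24.6% and 24.8%, and 20.8% and 21.3%. With 2 libraries per stage an exact permutation test between 2 stages cannot give a two-sided p below 0.333, so none was run.

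Within a hub, one partner usually held most of the reads. The leading partner, taken over all libraries, held a median of 62.2% of the reads (quartiles 51.2% and 75.7%, range 34.2% to 96.4%), with 16 hubs above 90% and 42 below 50%. Among hubs of 3 partners the shortest span led at 59, the middle at 63 and the longest at 44, and over all hubs the shortest led at 75 and the longest at 46, with no test of the difference. Leading and other partners had the same median number of exons (4), and medians of 488 and 531 spliced bases. Of the leading partners 15.3% were absent from circBase, and of the other partners 39.6%. In 131 hubs all partners fitted 1 annotated transcript, and in 47 of these (35.9%) the far ends lay at consecutive exons.

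Among the most-read hubs, several were ruled by 1 circle at every stage. At exon 2 of Pvt1, a long noncoding RNA gene, the single-exon circle chr15:61938703-61939020 had 235, 422, 502, 438, 516 and 740 reads in the libraries in order (D0, D0, D4, D4, D8, D8) and between 93.5% and 97.9% of the hub. At Lrch3, chr16:32950378-32961830 had 127, 209, 499, 435, 303 and 259 reads, 96.2% of the hub in all. At Med13l, a subunit of the Mediator kinase module, the circle chr5:119043342-119043579, 1 exon of 238 bases, had 135, 215, 513, 583, 515 and 510 reads and a mean share of 88.8% ± 0.912 at D0, 90.5% ± 0.699 at D4 and 90.7% ± 2.78 at D8 (SD, n = 2). The edgeR test across stages called none of these 3 hub totals (adjusted p = 0.577 for Pvt1, 0.0776 for Lrch3 and 0.0502 for Med13l). DESeq2 called those of Lrch3 and Med13l (adjusted p = 0.00415 and 0.000286) and not that of Pvt1 (0.92), and over the alternatives the adjusted p ranged from 0.00415 to 0.302 at Lrch3, from 0.000286 to 0.156 at Med13l and from 0.137 to 0.92 at Pvt1.

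The hub of Rasa2 was divided. At exon 2 of this gene, which encodes a Ras GTPase-activating protein, a circle of 4 exons (chr9:96492369-96511918) had 101, 124, 141, 135, 175 and 179 reads and one of 3 exons (chr9:96503132-96511918) had 71, 109, 146, 119, 144 and 115. The larger circle led in 5 of the libraries and the smaller in the first D4 library, and over all libraries they held 53.4% and 43.9% of the hub. The most-read hub at the Rbm14 locus (chr19:4794009, minus strand), which matched no annotated exon end, was led by chr19:4792398-4794009 with 206, 166, 315, 253, 251 and 287 reads, 83.1% of the hub.

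**Figure D2:**
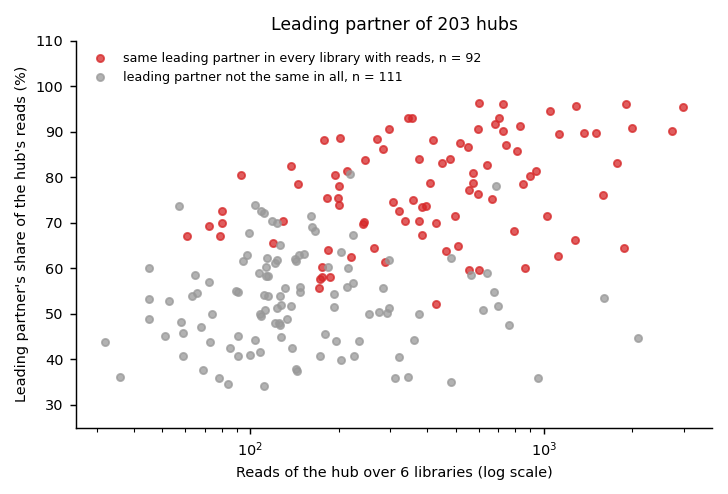
Share of a hub's reads held by its leading partner, in percent over all 6 libraries, against the number of back-splice reads of the hub on a log axis, 1 point per hub, red where the same partner led in every library with reads (92 hubs). The shares run from 34.2% to 96.4% with a median of 62.2%.

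The same partner led in every library with reads at 92 of 203 hubs. Where depth allowed the comparison, at the 68 hubs with at least 30 reads in every library, 53 kept 1 leader in all 6 libraries and 15 did not, and the median leading share was 74.2%. At 7 hubs both replicates of each stage agreed on a leader and the leader differed between stages, and 1 of them had at least 30 reads in every library.

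To compare the stages as a whole, the distance between the partner shares of 2 libraries was taken for those 68 hubs, as the percentage of reads that would have to be assigned to another partner to make the shares equal. The median distance between replicates was 10.0% at D0, 7.5% at D4 and 7.69% at D8. Between stages the medians were 12.7% for D0 and D4, 13.2% for D0 and D8 and 10.4% for D4 and D8. The mean distance between stages was above the mean distance between replicates at 50 of 68 hubs, with medians of 12.6% and 9.38%. The D0 to D4 distance was above the largest replicate distance at 21 hubs, the D0 to D8 distance at 18 and the D4 to D8 distance at 15.

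**Figure D3:**
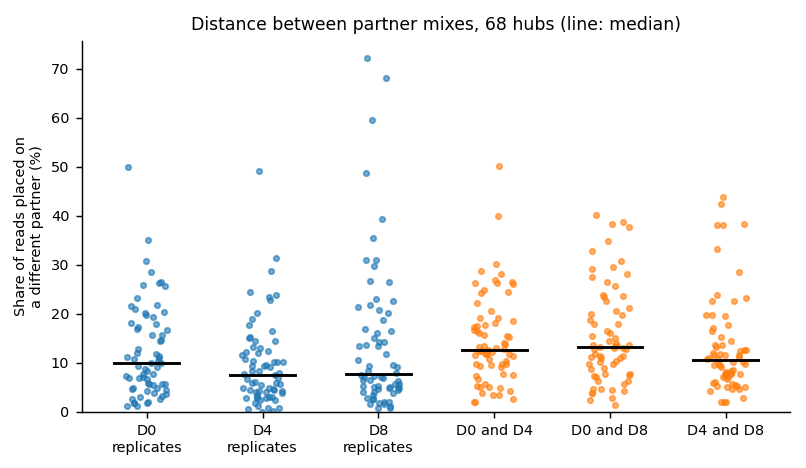
Distance between the partner shares of libraries, in percent of reads, at the 68 hubs with at least 30 reads in every library, for replicates of each stage (blue) and pairs of stages (orange), 1 point per hub with a line at the median. Replicate medians lie between 7.5% and 10.0% and stage medians between 10.4% and 13.2%.

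Each partner's share was tested against the rest of its site with edgeR's exon-usage test on 545 partners at 249 sites, among them 277 at 115 hubs (260 members). After Benjamini-Hochberg adjustment over all 545, no partner was called in any contrast, that is 0% of those tested. At an unadjusted p under 0.05 there were 14 of 277 hub partners for D4 against D0, 10 for D8 against D0 and 11 for D8 against D4, beside 24, 20 and 17 of all 545 partners. With limma's diffSplice 2, 0 and 0 hub partners were called, beside 2, 0 and 0 of all 545. The lowest adjusted p from edgeR was 0.213, 0.348 and 0.386 in the 3 contrasts, of which those against D0 share the D0 libraries.

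The partner called by limma that rested on reads in every library was at the donor hub of exon 18 of Arhgap10. The circle of 3 exons, chr8:79868539-79875571, had 22 of 196 and 31 of 229 hub reads at D0, 75 of 224 and 85 of 216 at D4, and 129 of 475 and 118 of 540 at D8. These are shares of 11.2% (95% Wilson interval 7.53 to 16.4) and 13.5% (9.7 to 18.6) at D0, 33.5% (27.6 to 39.9) and 39.4% (33.1 to 46) at D4, and 27.2% (23.4 to 31.3) and 21.9% (18.6 to 25.5) at D8. The libraries of the 3 stages did not overlap, with D4 highest and D0 lowest.

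The mean share of this circle went from 12.4% ± 1.64 at D0 to 36.4% ± 4.15 at D4 and 24.5% ± 3.75 at D8 (SD, n = 2). The log2 ratio of D4 to D0 was 1.55 (SE 0.41), with an unadjusted p of 0.00275 and an adjusted p of 0.217 by edgeR and an adjusted p of 0.0159 by limma, and the alternatives ranged from 0.0144 to 1. The circle of 5 exons that led the hub, chr8:79868539-79889059, had 154, 157, 127, 120, 301 and 353 reads and shares of 73.6% ± 7.08, 56.1% ± 0.807 and 64.4% ± 1.42. The other 2 partners, chr8:79868539-79908695 and chr8:79868539-79882533, had between 3 and 35 reads in a library.

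Arhgap10 held further hubs whose circles share these ends. At the acceptor of exon 14 (chr8:79889059), the circle of 2 exons chr8:79882446-79889059 had 19 and 13 reads at D0, 0 and 0 at D4 and 12 and 10 at D8. Its share was 7.58% ± 1.39 at D0, 0% at D4 and 2.6% ± 0.552 at D8. If the D4 zeros are true zeros, 0 of 170 and 0 of 153 reads allow up to 2.21% and 2.45% by the Wilson interval. The table holds no value of 1, so a listed 0 can stand for 1 read, and the limits would then be higher. This was the partner with the lowest p of all for D4 against D0 (edgeR, unadjusted p = 0.000417, adjusted p = 0.213, range over the alternatives 0.0813 to 0.954). Its p is no independent test of a difference from D4, since the circle entered the table through D0 and D8. At the acceptor of exon 12 (chr8:79908695), the circle chr8:79875513-79908695 had 6, 10, 0, 0, 15 and 43 reads, so that the same limit holds for it. It was lowest in unadjusted p for D8 against D4 (edgeR, 0.00141, adjusted p = 0.386, range 0.228 to 1).

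**Figure D4:**
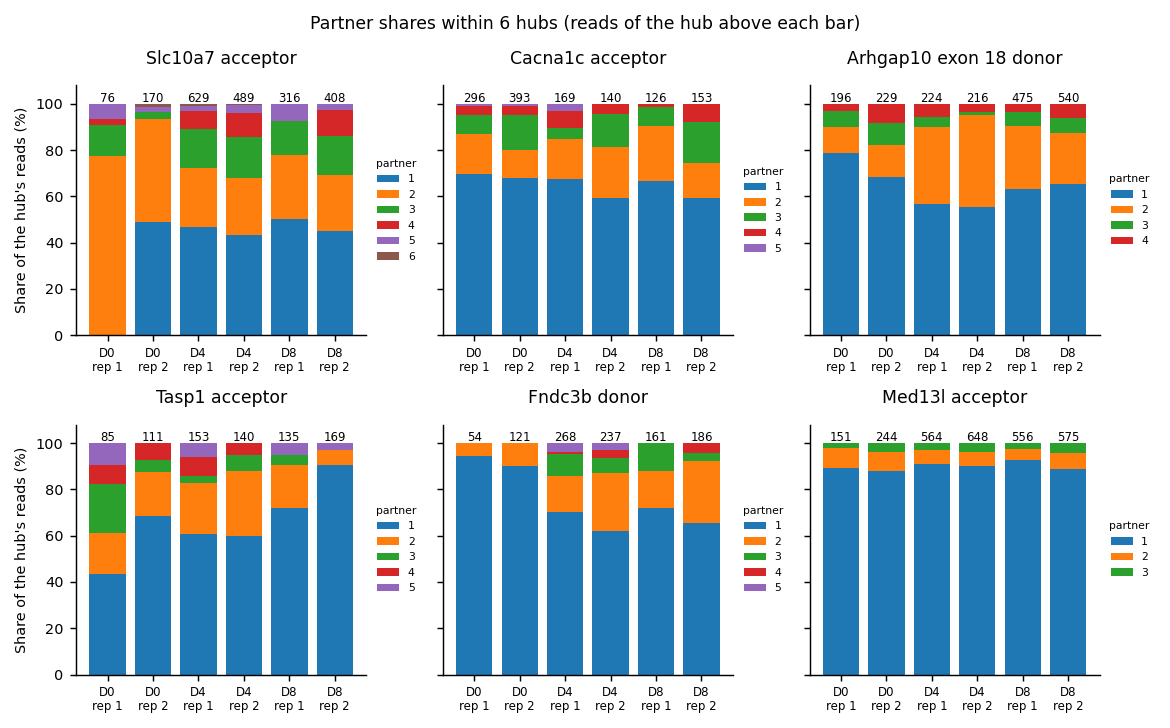
Partner share in percent by library (D0, D4 and D8, 2 libraries each) as stacked bars at 6 hubs, with partners coloured by their rank in reads and the hub's reads above each bar. At the Arhgap10 donor hub the circle of 3 exons goes from 11.2% and 13.5% at D0 to 33.5% and 39.4% at D4, while at Med13l the leading partner stays between 88.1% and 92.6%.

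At the Slc10a7 acceptor the partner order differed between the 2 D0 libraries. The circle of 4 exons, chr8:81039485-81102656, had 0 and 83 reads at D0, 293 and 212 at D4 and 159 and 184 at D8, and led the hub with 44.6% of all reads. The circle of 3 exons, chr8:81039485-81055057, had 59, 76, 161, 121, 88 and 99 reads, and its share was 77.6% (67.1 to 85.5) and 44.7% (37.4 to 52.2) at D0, and between 24.3% and 27.8% in the later libraries. Its lower share at D4 was called by limma (adjusted p = 0.0159) and not by edgeR (unadjusted p = 0.204, adjusted p = 0.998, range over the alternatives 0.0159 to 1). The zero of the leading circle in the first D0 library enters this share. With such single zeros beside at least 15 reads in the other replicate left out, limma called 1 partner, the Arhgap10 circle of 3 exons. It was the only call among all 473 partners then tested.

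The larger circles of Slc10a7 were rare at D0. The circle of 9 exons, chr8:81039485-81230847, had 10, 5, 106, 85, 46 and 68 reads, and chr8:81039485-81186921 had 2, 0, 48, 52, 0 and 46. The former held 8.05% ± 7.22 of the hub at D0, 17.1% ± 0.375 at D4 and 15.6% ± 1.49 at D8 (SD, n = 2), a difference that edgeR did not call (D4 against D0, adjusted p = 0.998, range 0.0813 to 1). The 2 rarest partners, ending at 81113148 and 81078920, had between 0 and 23 reads in a library.

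At the donor hub of Fndc3b (chr3:27519527, minus strand), the leading circle chr3:27519527-27542011 had 51, 109, 188, 147, 116 and 122 reads. Its share was 92.3% ± 3.08 at D0, 66.1% ± 5.74 at D4 and 68.8% ± 4.57 at D8, and the D0 libraries lay above the other 4. The partner chr3:27519527-27581736 was listed at 0 in both D0 libraries and had 25, 15, 19 and 6 reads after induction (edgeR, D4 against D0 unadjusted p = 0.00327, adjusted p = 0.217, range 0.14 to 0.954). That partner entered the table through later stages, so its p is no independent test of a difference from D0. The circle chr3:27519527-27548262 had 3, 12, 42, 60, 26 and 50 reads, and the other 2 partners had none at D0 and at most 10 in a later library.

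At Tasp1, which encodes the protease taspase, the acceptor hub chr2:139883235 had 5 partners. The leading circle, chr2:139867830-139883235, had 37, 76, 93, 84, 97 and 153 reads. Its share was 56% ± 17.6 at D0, 60.4% ± 0.555 at D4 and 81.2% ± 13.2 at D8 (SD, n = 2). The circle chr2:139810865-139883235 had 7, 8, 13 and 7 reads up to D4 and was listed at 0 in both D8 libraries (edgeR, D8 against D0 unadjusted p = 0.00357, adjusted p = 0.348, range 0.167 to 0.846). This circle entered the table through D0 and D4, so its p is no independent test of a difference from D8. At Wdfy3, a gene of selective autophagy, chr5:102468869-102470762 had 6, 17, 4, 12, 0 and 0 reads. The whole Wdfy3 hub had 9 and 13 reads at D8, so its zeros there say little about the share. At a hub that the annotation placed at Vmn1r90, chr7:15164085-15183800 had 0, 0, 18, 19, 14 and 10. In Bckdhb, chr9:83846131-83906226 had 0, 0, 8, 25, 24 and 15. EdgeR called none of the shares of these Wdfy3, Vmn1r90 and Bckdhb circles, each of which was listed at 0 in a whole stage.

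Hubs with 5 or 6 partners also lay in Man2a1, Rere, Mkln1, Cacna1c and Bmper. At Man2a1, a Golgi mannosidase, 6 circles of 2 to 11 exons started at the same acceptor (chr17:64973868), led by the circle of 2 exons with 19, 35, 86, 61, 42 and 53 reads. At Mkln1, the circle of 5 exons had 60, 72, 138, 122, 146 and 183 reads, 80.3% of the hub, and the other 4 between 0 and 18 in a library. At Rere, a nuclear receptor corepressor, the leading circle had 18, 29, 0, 65, 0 and 57 reads, so that 1 library of D4 and 1 of D8 were at 0 beside 65 and 57 in their replicates. Such zeros beside at least 15 reads were found in 28 members and in 117 circRNAs of the table.

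The total of a hub, the sum over its partners, was tested across the 3 stages with edgeR's quasi-likelihood test on all 2697 sites with enough reads. Of these, 113 (4.19%) were called at an adjusted p under 0.05, and 23 of the 200 hubs tested were among them, in 16 genes. Among sites with at least 100 reads, 22 of 168 hubs (13.1%) and 73 of 901 other sites (8.1%) were called. Of the 23 hubs, 19 were higher at D8 than at D0 and 4 lower. DESeq2 called 28 hubs, beside 134 of 2946 sites, and edgeR with a replicate block called 2, beside 11 of 2697 sites. The count was 3 without the first D4 library and 2 without the second, beside 15 of 3480 and 8 of 3497 sites, and 10 and 14 without the first and the second D8 library, beside 40 of 3368 and 64 of 3383 sites. With single zeros beside at least 15 reads left out, 50 hubs were called, beside 316 of 2542 sites.

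The donor hub of Cped1 was far higher after induction and kept its call under every alternative. It had 21 and 25 reads at D0, 231 and 277 at D4 and 289 and 204 at D8, which is 736 ± 54, 6006 ± 909 and 5198 ± 1657 circCPM (SD, n = 2). All 4 later libraries were above both D0 libraries. The log2 fold change was 3.09 (SE 0.32) at D4 and 2.89 (SE 0.32) at D8 against D0, with an adjusted p of 0.0114 by edgeR across stages (range over the alternatives 2.11e-10 to 0.0491). The leading circle, chr6:22082229-22095687, held all the listed D0 reads and 92% ± 1.48 at D4 and 96.4% ± 1.16 at D8. The other 2 circles were listed at 0 at D0, where 0 can stand for fewer than 2 reads. With 21 and 25 hub reads there, their absence before induction cannot be told.

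Cacna1c went the other way. Its acceptor hub had 296 and 393 reads at D0, 169 and 140 at D4 and 126 and 153 at D8, that is 10997 ± 1649.5, 3642 ± 398 and 2898 ± 171 circCPM. The D0 libraries were above all others. The log2 fold change was -1.52 (SE 0.22) at D4 and -1.85 (SE 0.22) at D8, with an adjusted p of 0.0134 by edgeR (range 5.09e-09 to 0.0655, the highest without the second D4 library). Its leading circle of 2 exons kept 68.8% ± 1.17, 63.4% ± 5.78 and 63.1% ± 5.08 of the hub while the total fell.

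**Figure D5:**
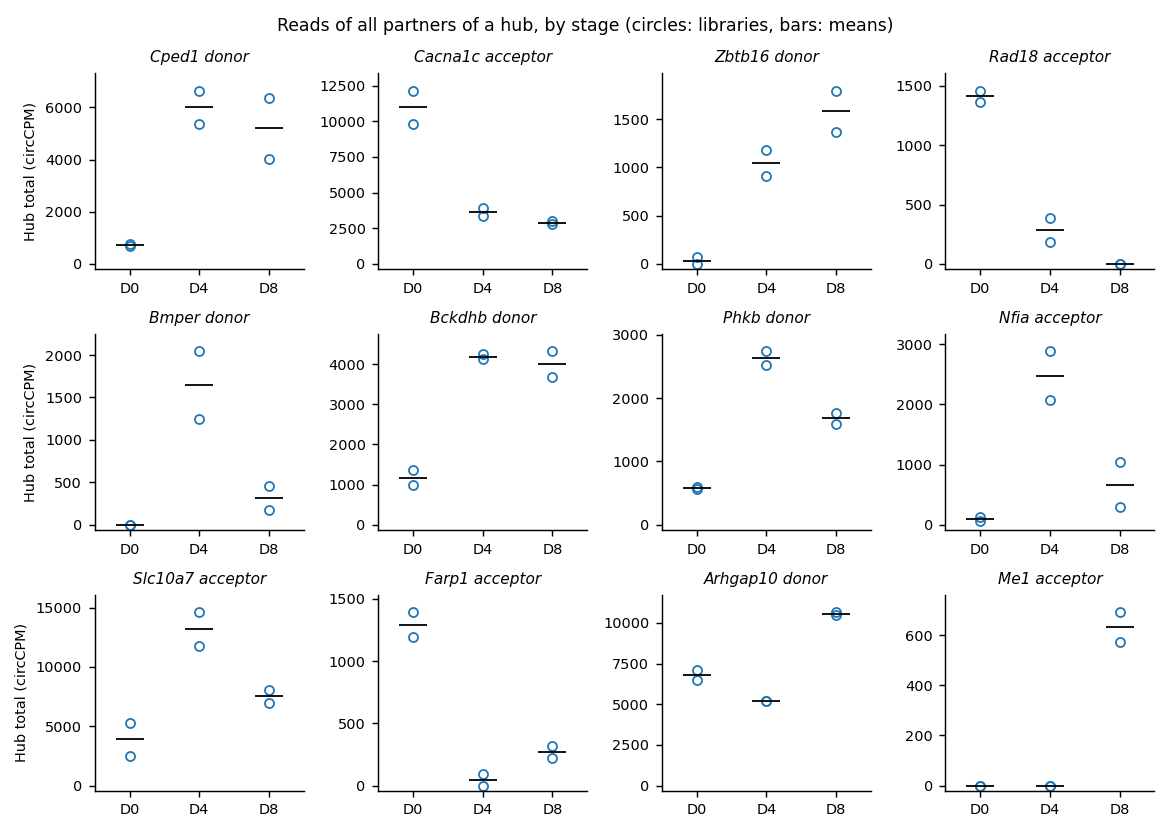
Hub totals in circCPM by stage for 12 of the hubs called across stages, each on its own linear axis, with 1 circle per library (2 at each stage) and a bar at the mean. Cped1 lies between 697 and 774 circCPM at D0 and between 4026 and 6649 later, and Cacna1c between 9831 and 12163 at D0 and between 2777 and 3924 later.

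Several called hubs belonged to genes of metabolism. The donor hub of Bckdhb (chr9:83906226) had 41, 32, 183, 172, 196 and 187 reads, a log2 fold change of 1.90 (SE 0.27) at D4 and 1.84 (SE 0.27) at D8 (edgeR, adjusted p = 0.0292, range 0.000284 to 0.0867). The acceptor hub of Phkb, the beta subunit of phosphorylase kinase that activates glycogen breakdown, had 32, 43, 196, 148, 120 and 135 reads (edgeR, adjusted p = 0.0333, range 0.00395 to 0.133). The hub of Me1, the malic enzyme that supplies NADPH to fatty acid synthesis, was listed at 0 in all D0 and D4 libraries and had 26 and 35 reads at D8 (edgeR, adjusted p = 0.0459, range 0.00316 to 0.211). In Bckdhb and Phkb both D4 and both D8 libraries were above D0, and in Me1 the D8 libraries alone had reads. The Me1 circles thus entered the table through D8 alone, and the p of this hub is no independent test of a difference.

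Hubs of signalling and transcription genes peaked at D4 or later. The acceptor hub of Nfia, a transcription factor of the nuclear factor I family, had 4, 2, 124, 86, 13 and 53 reads (edgeR, adjusted p = 0.0333, range 2.92e-05 to 0.116). Its log2 fold change was 4.70 (SE 0.74) at D4 and 2.82 (SE 0.77) at D8. The donor hub of Bmper, a secreted BMP-binding protein, was listed at 0 at D0 and had 88, 52, 8 and 23 reads later (edgeR, adjusted p = 0.0292, range 4.94e-06 to 0.0919). The hub of Zbtb16, a zinc finger transcription regulator, had 2, 0, 51, 38, 62 and 91 reads (edgeR, adjusted p = 0.0292, range 2.03e-05 to 0.0656). All later libraries of these 3 hubs were above both D0 libraries. The circles of Bmper and Zbtb16 and the most-read circles of Nfia did not meet the detection rule at D0 and entered the table through later stages. The p-values of these hubs are therefore no independent test of a difference from D0.

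Other hubs fell after induction. The acceptor hub of Rad18, an E3 ubiquitin ligase of DNA damage tolerance, had 44 and 44 reads at D0, 8 and 16 at D4 and none at D8 (edgeR, adjusted p = 0.0292, range 7.69e-06 to 0.0525). Its circles entered the table through D0 or D4, so this p is no independent test of a difference from D8. The donor hub of Farp1, a FERM domain protein, had 46, 32, 8, 2, 7 and 9 reads (edgeR, adjusted p = 0.0459, range 0.0077 to 0.134), and the acceptor hub at the same exon 36, 45, 4, 0, 10 and 16. These 2 hubs share the circle of exon 2 itself, so they are not independent.

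The Arhgap10 hubs were the ones called that were low at D4 and high at D8. The donor hub of exon 18 had 196, 229, 224, 216, 475 and 540 reads, or 6799 ± 409, 5193 ± 11.2 and 10563 ± 133 circCPM. The log2 fold change was -0.32 (SE 0.19) at D4 and 0.71 (SE 0.19) at D8 (edgeR, adjusted p = 0.0475, range 0.00661 to 0.185). The acceptor hub of exon 14 had 222, 197, 170, 153, 401 and 452 reads and that of exon 12 had 28, 43, 25, 14, 81 and 119. In circCPM the D8 libraries were above the other 4 at all 3 hubs, which share circles with each other.

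The hubs of Slc10a7, Cnot6l, Ptbp3, Ssbp2 and Tmem164 had their highest mean level at D4. The Slc10a7 acceptor had 76, 170, 629, 489, 316 and 408 reads, a log2 fold change of 1.83 (SE 0.33) at D4 and 1.02 (SE 0.33) at D8 (edgeR, adjusted p = 0.0484, range 1.51e-05 to 0.161). Cnot6l, a deadenylase of the CCR4-NOT complex, had 147, 173, 490, 457, 292 and 439 hub reads. Ptbp3, a polypyrimidine tract-binding splicing regulator, had 106, 134, 323, 339, 157 and 229, so that its D8 level of 3989.8 ± 749 circCPM was close to the 3834 ± 443 of D0, with 7819 ± 451 at D4.

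Single members were tested with the same model over the 1407 circRNAs with enough reads, of which 320 were members, and 296 members were not tested. Across the stages 16 circRNAs were called (1.14%), 3 of them members, and DESeq2 called 11 members, beside 39 of 1248 circRNAs. The 3 were the leading circles of Cped1 and Cacna1c and the circle of 9 exons of Slc10a7. With no filter 67 members were called across stages, beside 396 of 3662 circRNAs, and with single zeros left out 43, beside 146 of 1290. The count was 2 without the first D4 library and 0 without the second, beside 9 of 1907 and 2 of 1949 circRNAs. It was 15 and 18 without the first and the second D8 library, beside 48 of 1846 and 58 of 1878, and 8 and 9 without the first and the second D0 library, beside 32 of 1867 and 34 of 1887. For D4 against D0, 46 were called (3.27%), and 16 members, 13 higher and 3 lower. Only the Cped1 circle was called among members without the first or without the second D4 library, beside 4 of 1907 and 4 of 1949 circRNAs, and 35 members were called with the single zeros left out, beside 107 of 1290 circRNAs. For D8 against D0, 17 were called (1.21%) and 3 members, those of Zbtb16 and Cped1 higher and that of Cacna1c lower, and 2 to 7 when 1 library was left out, beside 11 to 30 of all circRNAs tested. With the single zeros left out, 22 members were called for D8 against D0, beside 91 of 1290 circRNAs. For D8 against D4, 1 circRNA was called (0.0711%) and no member by edgeR, with 40 of 320 members at an unadjusted p under 0.05, beside 171 of all 1407 circRNAs. The median log2 fold change of the tested members was 0.25 for D4 against D0, 0.11 for D8 against D0 and -0.19 for D8 against D4, and that of all tested 0.00, 0.04 and -0.02.

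The members higher at D4 each led at least 1 of their hubs. The Slc10a7 circle of 9 exons rose by 3.27 on the log2 scale (SE 0.45, edgeR, adjusted p = 0.0228), and the leading circle of Cped1, with 21, 25, 215, 252, 281 and 195 reads, by 2.97 (SE 0.32, adjusted p = 0.00959). That of Bckdhb, chr9:83882383-83906226, had 41, 29, 167, 147, 162 and 149 reads and a change of 1.78 (SE 0.30, adjusted p = 0.0307). That of Phkb, chr8:88399533-88425856, had 18, 18, 112, 90, 74 and 58 (2.11, SE 0.35, adjusted p = 0.0307). All these had both D4 libraries above both D0 libraries.

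Smaller changes on larger counts were found at Med13l, Cnot6l and Ptbp3. The Med13l circle went up by 1.29 (SE 0.24, edgeR, adjusted p = 0.0333) at D4, the Cnot6l circle chr5:96557962-96563151, with 127, 155, 454, 410, 271 and 399 reads, by 1.25 (SE 0.22, adjusted p = 0.0307), and the Ptbp3 circle chr4:59527146-59537348, with 104, 124, 300, 323, 157 and 223, by 1.08 (SE 0.22, adjusted p = 0.0424). The Tmem164 circle had 31, 31, 102, 160, 89 and 106 reads, the Ssbp2 circle 3, 6, 45, 59, 22 and 41 and the Atrnl1 circle 15, 22, 107, 75, 54 and 42. With no filter the Med13l, Cnot6l, Ptbp3 and Atrnl1 calls were lost (edgeR, adjusted p = 0.0752, 0.0653, 0.092 and 0.0594). With a replicate block those of Ptbp3, Tmem164 and Atrnl1 were lost (edgeR, adjusted p = 0.0503, 0.0586 and 0.0759). Circles of Nfia (chr4:97623065-97687645, with 70, 49, 8 and 30 reads) and Bmper (chr9:23203794-23211275, with 48, 25, 8 and 14) were called higher at D4 from 0 in both D0 libraries. The Zbtb16 circle had 2, 0, 34, 35, 47 and 53 reads, with an adjusted p of 0.0333 at D4 and 0.033 at D8 (edgeR). The Nfia, Bmper and Zbtb16 circles did not meet the detection rule at D0 and entered the table through later stages. Their p-values are therefore no independent test of a difference from D0. With a replicate block the D4 calls of Bmper and Zbtb16 were lost (edgeR, adjusted p = 0.0503 and 0.0573).

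The 3 members lower at D4 were those of Cacna1c, Taf4 and Arhgap10. The Cacna1c circle had 206, 267, 114, 83, 84 and 91 reads, with a log2 fold change of -1.63 (SE 0.25, edgeR, adjusted p = 0.0299) at D4 and -1.97 (adjusted p = 0.022) at D8. The circle of Taf4, a subunit of the general transcription factor TFIID, had 27, 27, 3, 4, 10 and 15 reads (log2 fold change -3.27, SE 0.60, edgeR, adjusted p = 0.0333), so that D8 lay between the other stages. The Arhgap10 circle of 2 exons, with 19 and 13 reads at D0 and 0 at D4, was the third. It entered the table through D0 and D8, so its p is no independent test of a difference from D4. With no filter and with a replicate block the Taf4 call was lost (edgeR, adjusted p = 0.0555 and 0.0578). So was that of Arhgap10 (edgeR, adjusted p = 0.0649 and 0.0759).

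The hubs were grouped by the function of the parental gene. Of 26 genes of lipid and energy metabolism, 7 had hubs, and 5 of their 10 tested hubs were called across stages, in Bckdhb, Me1 and Phkb, beside 113 of all 2697 sites. Their 14 tested members had a median log2 fold change of 1.53 at D4 and 1.32 at D8 against D0, with 2 called higher at D4, beside 46 of all 1407 circRNAs called in either direction. Bckdhb and Phkb account for several of these hubs and members, and circles that share a gene are not independent. The Me1 hub entered the table through its D8 reads alone. The hubs of the other genes of this list, among them Pdss2, Ppa2 and Etnk1 with between 131 and 193 reads, were not called.

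Of 33 adipogenic regulators, 12 had hubs, and 2 of 15 tested hubs were called, both in Nfia, beside the same 113 of 2697 sites. The most-read circles of both hubs did not meet the detection rule at D0. Their p-values are therefore no independent test of a difference from D0. The 22 tested members had medians of -0.17 at D4 and -0.42 at D8, with 1 called higher at D4, beside the same 46 of 1407 circRNAs. Pparg, the nuclear receptor that directs adipogenesis, had a hub at exon 3 behind an intron of 56096 bases, with 0 and 0 reads at D0, 10 and 11 at D4 and 16 and 26 at D8 (edgeR, adjusted p = 0.0774). The hub of Ghr, the growth hormone receptor, had 0, 5, 0, 26, 65 and 88 reads (edgeR, adjusted p = 0.167). The hubs of Creb1, Pdpk1, Map3k3, Sos2, Mef2d, Rps6kc1 and Zeb1 were not called. Among them the leading circle of Map3k3 had 12, 17, 69, 70, 18 and 51 reads, and that of Zeb1, a transcription factor of mesenchymal cells, 41, 58, 32, 19, 42 and 67.

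In the other groups, none of 25 tested hubs of chromatin and transcription genes was called by edgeR across stages, with 6 at an unadjusted p under 0.05, beside 77 of 200 hubs and 629 of 2697 sites, and 2 called by DESeq2 (Med13l and Tulp4), and their members in Med13l and Taf4 were called at D4. Of 17 hubs of cytoskeleton genes 5 were called, in Arhgap10 and Farp1. Of 17 hubs of RNA binding and decay genes 2 were called (Cnot6l and Ptbp3), of 16 of membrane transport and traffic 3 (Cacna1c and Slc10a7), of 14 of ubiquitin and protein turnover 1 (Rad18) and of 2 of TGF-beta and BMP signalling 1 (Bmper). These counts stand beside 113 of 2697 sites called in all, and no test of any list was made.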

How the data were processed

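The deposited table held raw counts, the back-splice reads of each circRNA in 6 libraries. According to the methods of the study, the authors digested rRNA-depleted RNA with RNase R, trimmed reads with fastp 0.20.1, aligned them to mm9 with BWA-MEM 0.7.17, called circRNAs with CIRI2 and kept those with at least 2 reads in both replicates of a stage. A circRNA kept for one stage can thus be at 0 in another, and no value of exactly 1 occurs in the table, so that 0 can stand for fewer than 2 reads. Where circles were at 0 in a whole stage, they were kept through the stages where they were read. A p-value for their difference from that stage is then no independent test. All 6 count columns were mapped to samples by name (0 unmapped). The table holds 30110 to 50672 reads per library.

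Positions were made 1-based from the identifiers, hubs were counted per chromosome and strand, and exons, introns and splice letters were read from mm9 with GENCODE vM1 (Ensembl 65), with RefSeq used for current symbols (10 hub genes renamed). The sequences were read from the mm9 genome and not from the libraries' reads.

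Counts were tested with edgeR 4.0.16 (quasi-likelihood, TMM factors, filterByExpr with a minimum of 10 reads and 15 in all, stage as the only term) in R 4.3.3, for circRNAs and for reads summed per site. Partner shares were tested with diffSpliceDGE on the same fit. p-values were adjusted by Benjamini-Hochberg over all features tested, with calls at 0.05. limma 3.58.1 (voom, diffSplice) and DESeq2 1.42.0 served as alternatives, next to no filter, a mean of at least 5 reads, RLE factors, column totals, a replicate block, other hub thresholds and each library left out. The scripts were tested on simulated data. Described in the text were hubs with at least 5 partners, the 8 with the most reads, the 5 with the lowest share p in each contrast, those with at least 60 reads in the adipogenic and metabolic lists, and members called in the level test. Hubs called by their totals were named as well, chosen after their values were seen. Members, lists and tests were chosen with earlier results of these data known. Some hubs that this rule takes in are not reported here.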

Additional observations from a re-analysis of the deposited data

How the results depend on the processing

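Among the single values run under the alternatives, no direction reversed. Of the single values, 535 kept their side of the threshold, 177 lost the call and 2 gained one. With no filter on low counts, 67 of 616 members were called across stages in place of 3, beside 396 of all 3662 circRNAs, 10 for D4 against D0 in place of 16, beside 32, and 37 hub totals in place of 23, beside 629 of 6182 sites. DESeq2 called 11 members across stages, beside 39 of 1248 circRNAs. Leaving out the circRNAs with a zero beside at least 15 reads, an alternative chosen after seeing the data, gave 43 of 289 members across stages, 35 for D4 against D0, 22 for D8 against D0 in place of 3 and 2 for D8 against D4 in place of 0, beside 146, 107, 91 and 16 of all 1290 circRNAs, and 50 hub totals beside 316 of 2542 sites. With limma 2 shares were called for D4 against D0 in place of 0, and 1 with those zeros left out, also chosen after seeing the data. These stand beside 2 of all 545 and 1 of all 473 partners tested. The cause of these shifts was not tested.

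Leaving out each library in turn, with the lone sample assumed to vary like the other groups, gave 0 to 18 members across stages, 1 to 27 for D4 against D0, 2 to 7 for D8 against D0, 0 to 4 for D8 against D4, and 2 to 26 hub totals, beside 2 to 58, 4 to 67, 11 to 30 and 0 to 15 of all circRNAs tested and 8 to 90 of all sites. No share was called by edgeR without any library. The hubs with 1 leader in every library were 96 to 99 when a library was left out, and the median leading share was 62.2% to 63.4%. Of 68 hubs with at least 30 reads in every library 53 kept 1 leader, and of 54 hubs left by partners with a mean of at least 5 reads 28.

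The replicate numbers of the stages are shared, and the correlations of the deviations of same-numbered libraries were 0.03478, 0.07021 and 0.04691. The labels do not say whether same-numbered libraries came from the same cells. With 2 libraries per stage these correlations cannot decide it. With a replicate block 2 members were called across stages, 9 for D4 against D0, 2 for D8 against D0 and 0 for D8 against D4, beside 5, 21, 4 and 0 of all 1407 circRNAs, with 2 hub totals in place of 23 (11 of all sites in place of 113) and no share.

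With sites of at least 2 circRNAs in place of 3 there were 891 hubs and 1728 members, with at least 4 there were 37 and 155, and with a mean of at least 5 reads per circRNA 54 and 166. As for depth, 68 of 203 hubs had at least 30 reads in every library.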
